A study of Mus musculus with 12 samples.

Results

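The mouse carboxylesterase 1 (Ces1) cluster is a row of 8 genes, Ces1a to Ces1h, that encode closely related serine hydrolases. Carboxylesterases sit mainly in the lumen of the endoplasmic reticulum or are secreted, and they split ester and amide bonds in drugs, pollutants and lipids. They are best known from liver, but lung also makes them, where they can hydrolyse inhaled esters and esters of surfactant and stored lipids. The marks described here are N6-methyladenosine (m6A) peaks, stretches of RNA that an m6A antibody pulled down more than the input RNA, and m6A in a 3' untranslated region (UTR) is known to affect how long a messenger RNA lasts. The members were chosen by gene family, and the family was selected on measured values of these same lists, namely a strong PBS peak at the cluster that had no OVA counterpart. A peak was taken as a member when the gene it was called on, or the gene it was assigned to, was one of the 8. This gave 1 of the 27292 peaks of the OVA list and 2 of the 26102 peaks of the PBS list.

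The study compared lungs of female BALB/c mice with ovalbumin (OVA) induced allergic asthma and lungs of control mice given phosphate-buffered saline (PBS), with 3 mice in each group. Mice were 6 to 8 weeks old, OVA mice were sensitized with OVA and alum on days 0 and 7 and breathed 3% OVA aerosol for 30 min a day on days 14 to 20, and lungs were taken on day 21. Each lung gave an immunoprecipitated (IP) library and an input library, 12 libraries in all. The deposited data are 1 peak list for OVA and 1 for PBS, with no values of single mice. No difference between the lists therefore has a replicate check, and none was tested here. The authors also report tests between the groups for m6A peaks and for gene expression, which were not used here. A peak needs both RNA from the gene and enrichment by the antibody, so a gene without a peak may carry little RNA, little m6A or too few reads. RNA came from lung tissue and not from sorted cells, so fewer cells of a type and less RNA or m6A per cell cannot be told apart. Per the methods, lavage fluid and lung tissue were collected after a methacholine test. Which of the mice gave the sequenced RNA is not stated.

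On chromosome 8 of GRCm38 the cluster runs from 93020214 to 93379777, or 360.0 kb, with all 8 genes on the minus strand. Their 3' ends therefore point to lower coordinates. Gene lengths range from 23.3 kb for Ces1b to 34.8 kb for Ces1g. The gaps between neighbours range from 3413 bp, between Ces1d and Ces1e, to 34788 bp, between Ces1c and Ces1d.

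Called peaks lay on 2 of the 8 genes. Ces1e had 1 peak in each list, and Ces1g had 1 peak in the PBS list and none in the OVA list. The other 6 genes, Ces1a, Ces1b, Ces1c, Ces1d, Ces1f and Ces1h, had no called peak in either list. They include the triacylglycerol hydrolase Ces1d, which releases stored lipid in liver and fat cells, and Ces1c, the main carboxylesterase of mouse plasma. Thus 1 of 8 Ces1 genes (12.5%) had a peak in the OVA list, where 52.0% of the protein-coding genes in RefSeq did. In the PBS list 2 of 8 (25.0%) had one, beside 50.5% of protein-coding genes. A called peak in the PBS list alone was found for 1 of the 8 and for 2.85% of protein-coding genes, but the family was picked for that peak and nothing is read from the difference.

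**Figure D1:**
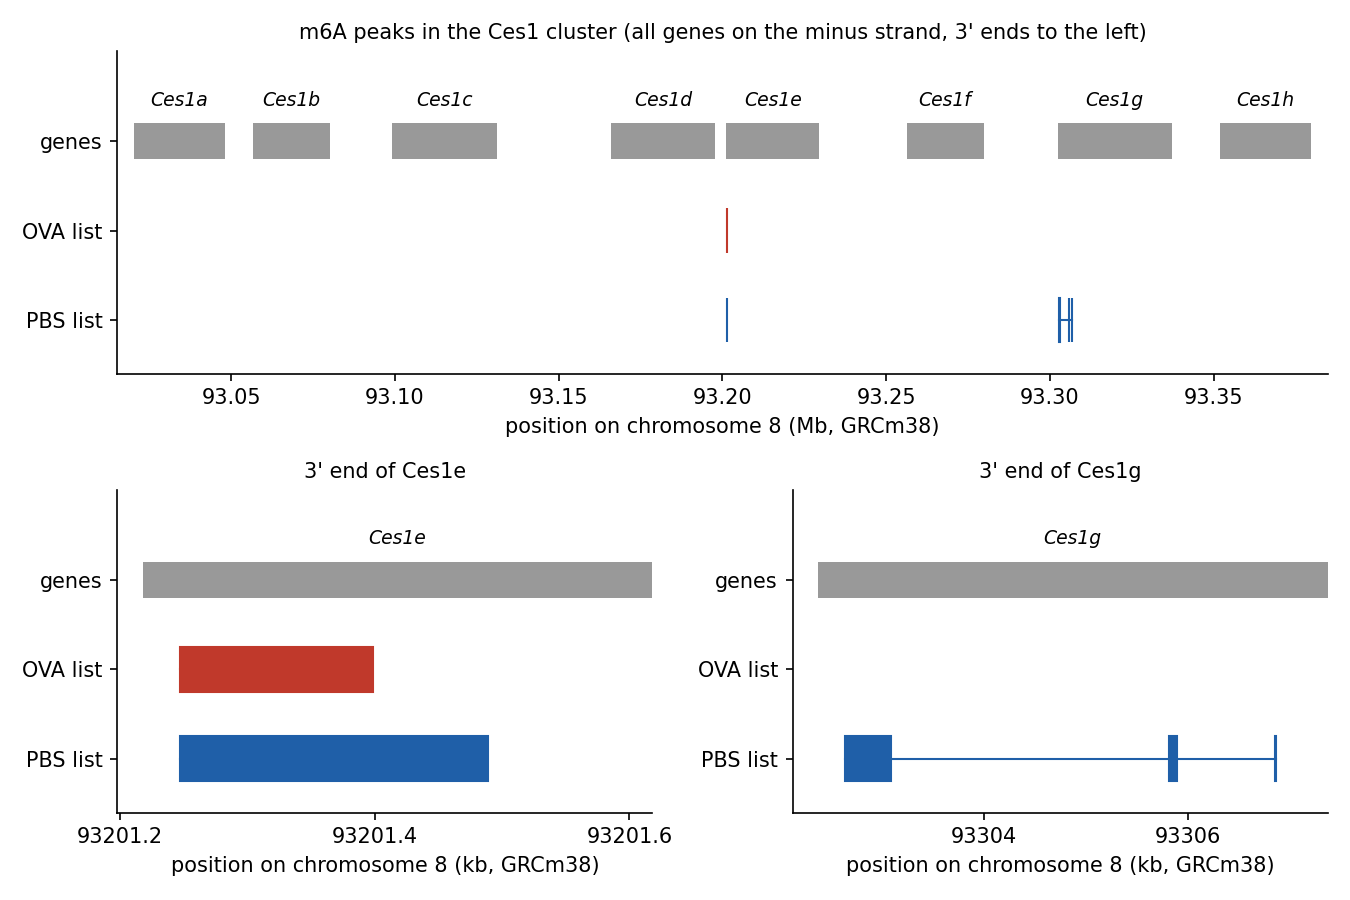
Map of the Ces1 cluster on chromosome 8 (GRCm38), in Mb above and in kb for the 3' ends of Ces1e and Ces1g below. Grey bars are RefSeq genes, and red and blue boxes are the exonic blocks of OVA and PBS peaks, joined by a line within a peak. Ces1e has a peak in both lists with the same start, at 93201247, and the peak of 3 blocks on Ces1g is in the PBS list alone.

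Ces1e encodes egasyn, the esterase that holds beta-glucuronidase in the endoplasmic reticulum. Its OVA peak spanned 93201247 to 93201398, a single block of 152 bp in the 3' UTR. The fold enrichment of IP over input in this peak was 14.9, with a log10 p of -4.18 and a log10 FDR of -3.33. The PBS peak of Ces1e spanned 93201247 to 93201488, also a single 3' UTR block, of 242 bp. Its fold enrichment was 13.1, its log10 p was -6.98 and its log10 FDR was -6.04. Both peaks lay 29 bp from the 3' end of the gene, and the PBS peak reached 90 bp farther into it. All 152 bases of the OVA peak were thus shared, and they made up 62.8% of the PBS peak. One edge being identical is common in these lists. Over the 17211 OVA and PBS peaks that each had exactly 1 counterpart, 42.5% of pairs had exactly 1 edge in common and 13.7% had both, and the edge that differed more lay a median of 59 bp apart.

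Within each list, the Ces1e peaks were high in fold enrichment and weak in p. In the OVA list, 84.1% of peaks had a lower fold enrichment, but only 15.9% had a weaker p, and the peak took place 22893 of 27292 by log10 p. In the PBS list, 81.9% of peaks had a lower fold enrichment and 29.5% a weaker p, which put it at place 18396 of 26102. The list medians were a fold enrichment of 5.59 and a log10 p of -24.0 for OVA, and 5.44 and -21.4 for PBS. Peaks of like fold enrichment were looked at after these values were seen. Among 1575 OVA peaks within 10% of the fold enrichment of Ces1e, the median log10 p was -139, and 6.48% had a weaker p than Ces1e. Among 1982 such PBS peaks the median was -104, and 23.1% had a weaker p. The Ces1e peaks were also short, with 18.2% of OVA peaks and 34.4% of PBS peaks narrower. Seen the other way, among the 756 OVA peaks with a log10 p between -3.98 and -4.47, those with a fold enrichment of 13.9 to 16.0, Ces1e included, numbered 127, the most of any fold bin, and 0 lay in a higher bin. The OVA peak of Ces1e thus sits on a narrow, densely filled edge where fold enrichment is at the highest that peaks of that p reached, and its high place by fold enrichment should be read with that limit. The PBS peak of Ces1e was not on this edge, since 99 of the 626 PBS peaks in its band of p lay in higher fold bins. Its own fold bin held 32 peaks, beside 20 and 8 in the bins just below and above it, so it too lay in a locally crowded bin. The lists hold no read numbers for a peak, so what sets the edge was not tested, the depth behind these ratios is unknown and no interval can be given.

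Ces1g encodes a liver carboxylesterase that takes part in lipid turnover. Its PBS peak spanned 93302637 to 93306865, or 4229 bp, and lay 268 bp from the 3' end of the gene. The peak was made of 3 exonic blocks. The block nearest the 3' end ran from 93302637 to 93303088 and held 452 bases, the middle block ran from 93305816 to 93305889 and held 74, and the last ran from 93306851 to 93306865 and held 15. Gaps of 2727 and 961 bp lay between them, so 541 bases of the span were exonic. The authors' annotation places the peak in the 3' UTR, although 2 of its exonic blocks lie farther toward the start of the gene. In the PBS list, 4.25% of peaks had 3 or more blocks and 78.6% had 1. The span was wider than that of 92.9% of PBS peaks, and the exonic length was above that of 72.3%, where the median was 328 bases.

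The Ces1g peak had a fold enrichment of 6.98, a log10 p of -136 and a log10 FDR of -134. The peak stood higher by p than by fold enrichment, but the family was picked for a PBS peak with a strong p. Its places by p given here restate that choice, and nothing is read from them or from a contrast with Ces1e. Of all PBS peaks, 77.9% had a weaker p and 58.9% a lower fold enrichment, and its place by log10 p was 5736. Among 1881 PBS peaks within 10% of its fold enrichment, 73.3% had a weaker p, and their median log10 p was -53.8.

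**Figure D2:**
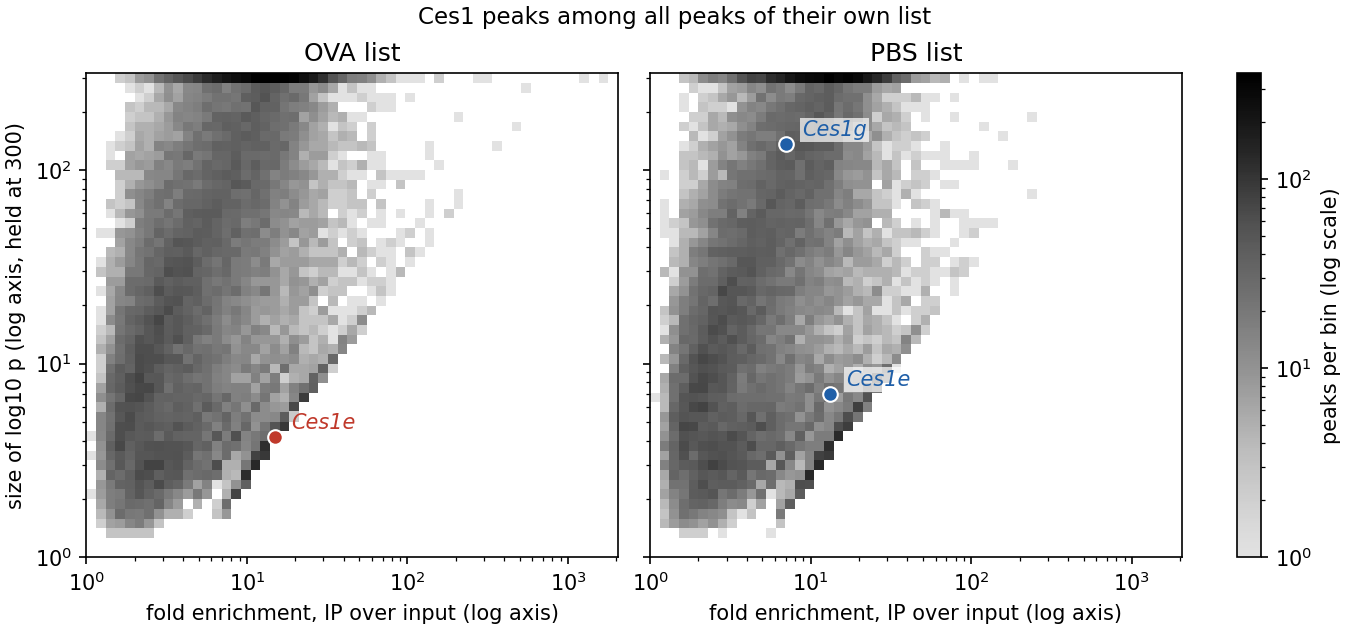
Fold enrichment of IP over input against the size of log10 p for all peaks of the OVA list (left) and the PBS list (right), both on log axes, with grey showing the number of peaks per bin and p sizes above 300 drawn at 300. Coloured points are the Ces1 peaks. Ces1e lies at the lower right edge of the OVA peaks, with a fold enrichment of 14.9 and a log10 p of -4.18, and Ces1g lies among the stronger PBS peaks, with 6.98 and -136.

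No OVA peak overlapped the Ces1g peak by its exonic blocks or by its span. The nearest OVA peak at lower coordinates was that of Ces1e, 101239 bp away, and the nearest at higher coordinates was called on Gnao1, 647190 bp away. Over the whole lists, 14.5% of PBS peaks and 19.4% of OVA peaks had no counterpart, beside 1 of 2 PBS peaks and 0 of 1 OVA peaks of the cluster. The family was picked for a PBS peak with a strong p and no OVA counterpart, so these counts and the places by p that follow restate that choice and support nothing. The Ces1g peak was placed 7 of 3772 by log10 p among PBS peaks without a counterpart, and 1023 by fold enrichment. The median of those 3772 peaks was a log10 p of -3.58 and a fold enrichment of 3.45, while PBS peaks with a counterpart had medians of -33.4 and 5.87.

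The peaks just above Ces1g in that order were called on Dbp, a clock-controlled transcription factor, with a log10 p of -158 and a fold enrichment of 5.58, and on Akap5, a kinase anchoring protein, with -143 and 1.9. Just below it came mt-Atp6, a mitochondrial ATP synthase subunit, with -126 and 12.0, and the glutamate receptor gene Gria1, with -125 and 13.1. By gene, 624 protein-coding genes had called peaks in the PBS list and none in the OVA list. Of these, 85.6% had a single peak, as did Ces1g. The median log10 p of their strongest peak was -3.9, and Ces1g took place 3 of 624 by that value.

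All 3 peaks of the cluster carried the name of a neighbouring gene in the authors' annotation. By default the annotation tool takes the gene whose transcript start is nearest. The 3' ends of Ces1e and Ces1g lie closer to the start of the next gene, Ces1d and Ces1f, than to their own. Both Ces1e peaks were assigned to Ces1d, with distances of -3560 bp (OVA) and -3650 bp (PBS) to its transcript start, while the RefSeq start of Ces1e was 28233 and 28143 bp away. The Ces1g peak was assigned to Ces1f at -27118 bp, and the start of Ces1g lay 30344 bp away. Only 2.9% of PBS peaks lay as far upstream of their assigned start or farther. In both lists a differing assigned gene was found for a minority of peaks, 22.5% in OVA and 22.8% in PBS. Of those, 67.2% and 67.8% lay upstream of the assigned start, at median distances of 8090 and 8060 bp. Read by assigned gene alone, the cluster would show peaks on Ces1d and Ces1f, on which no peak was called. The Ces1 genes are close paralogs, and how reads that match several of them were treated is not given in the sources used here, so which member a peak belongs to is uncertain to that extent.

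Peaks around the cluster were listed from 500 kb before the first to 500 kb after the last Ces1 peak, from 92701247 to 93806865. Each list had 5 peaks there, including those of Ces1, and the other genes with a peak lay on the low side of the cluster. Mmp2, a matrix metalloprotease, had 1 peak at the same position in both lists, with fold enrichments of 1.4 (OVA) and 1.47 (PBS). Slc6a2, the noradrenaline transporter, had a shared 3' UTR peak, with fold enrichments of 5.82 (OVA) and 6.08 (PBS), and a 5' UTR peak in the PBS list alone, with 3.86. Capns2, a small calpain subunit, had 2 peaks in the OVA list alone, with fold enrichments of 6.33 and 2.31. In this window 2 of 5 OVA peaks and 2 of 5 PBS peaks had no counterpart, beside 19.4% and 14.5% over the whole lists. Ces1g had the lowest p of those 4, but the family was picked for that peak and nothing is read from this place.

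The rest of the carboxylesterase family was read in the same way. Of the other 12 genes, 10 had no called peak in either list: Ces2a, Ces2c, Ces2d-ps, Ces2e, Ces2f, Ces2h, Ces3a, Ces3b, Ces4a and Ces5a. Together with Ces1, 2 of 20 carboxylesterase genes had a called peak in the OVA list and 4 of 20 in the PBS list. Of RefSeq protein-coding genes, 52.0% had one in the OVA list, 50.5% in the PBS list and 45.2% in neither. Ces2b, in the Ces2 group 11.5 Mb farther along chromosome 8, had 1 OVA peak, which covered 104839046 to 104839196 and had 8.21 as its fold enrichment and -2.07 as its log10 p. In the PBS list Ces2b had 3 peaks in a row in its 3' UTR between 104839016 and 104839615, with fold enrichments of 18.3, 12.3 and 15.8. Their log10 p values were -5.32, -3.38 and -4.5, and the first of them overlapped the OVA peak. Within the OVA list, 63.1% of peaks had a lower fold enrichment than the Ces2b peak and 1.74% a weaker p. Within the PBS list, 91.2%, 79.4% and 87.6% had a lower fold enrichment than its 3 peaks, and 23.3%, 11.4% and 19.1% a weaker p. The OVA peak and the middle PBS peak of Ces2b lay in the highest filled fold bin of their bands of p, as the OVA peak of Ces1e did. As with the Ces1 peaks, 2 of the 3 were assigned to a neighbour, Ces2c. Ces2g had 1 exonic PBS peak with a fold enrichment of 1.51 and a log10 p of -2.84, and none in the OVA list. No OVA peak of a carboxylesterase lacked a counterpart. In the PBS list, 1 of 2 Ces1 peaks and 3 of 4 peaks of the other genes did, beside 14.5% of all PBS peaks. Of these, the Ces1g peak had the lowest p, which restates how the family was picked. The others had log10 p values of -3.38, -4.5 and -2.84, where the median of PBS peaks without a counterpart was -3.58. Nothing is read from these counts.

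Enzymes and receptors related to the Ces1 proteins by substrate or control were counted as lists, beside RefSeq protein-coding genes, of which 47.7% had a called peak in both lists, 4.32% in the OVA list alone, 2.85% in the PBS list alone and 45.2% in neither. Of 14 lipid ester hydrolases and their regulators, 11 had peaks in both lists and 3, Pnpla3, Lipc and Aadac, in neither, and no gene had peaks in 1 list alone. The highest fold enrichments were those of Lipe (29.5), Lpl (21.6) and Nceh1 (19.0) in the OVA list, and of Abhd6 (72.5), Nceh1 (21.8) and Lipe (16.2) in the PBS list. Of 16 esterases and xenobiotic enzymes, 7 had peaks in both lists and 5 in neither. Fmo1 and Pon2 had peaks in the PBS list alone, with fold enrichments of 1.4 and 2.07 and log10 p values of -18.5 and -2.28. Cyp2f2 had a peak in the OVA list alone, with 1.93 and -26.5. The highest were Aldh1a1 (23.1), Ache (20.5) and Cyp1a1 (17.6) for OVA, and Ache (52.3), Cyp1a1 (16.9) and Bche (12.1) for PBS. Of 8 nuclear receptors that govern lipid and xenobiotic genes, 6 had peaks in both lists, led by Nr1h4 (27.7), Nr1h3 (16.4) and Ppara (14.5) in OVA and by Nr1h3 (26.6), Nr1h4 (24.2) and Ppara (15.0) in PBS. Nr1i2 and Hnf4a had peaks in the OVA list alone, with highest fold enrichments of 4.79 and 13.3. These peaks had weak log10 p values of -2.7 and -3.68, and both Nr1i2 peaks were assigned to another gene. Places by fold enrichment in these lists carry the limit described for Ces1e. The OVA peaks of Lpl, Nr1h3 and Hnf4a had log10 p values of -6.37, -4.68 and -3.68, and each lay, like Ces1e, in the highest filled fold bin of its band of p, a bin that held 90, 97 and 119 peaks in turn. Of the other peaks named for high fold enrichment, those of Aldh1a1 and Nr1h4 in OVA and of Nr1h3 and Nr1h4 in PBS had log10 p values from -7.24 to -9.93, with 17 to 39 peaks in higher bins. The rest had a log10 p of -20.6 or lower, and the PBS peak of Abhd6, with -37.9, was alone in the highest filled bin of its band.

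Marker genes of several cell types were read the same way. The lists do not show which cells carried Ces1 RNA, and a part of any cell type in the Ces1g peak was not tested. Of 6 lipofibroblast and adipocyte markers, Plin1, Adipoq and Cidec had a peak in the PBS list alone, beside 2.85% of protein-coding genes, with fold enrichments of 4.49, 3.05 and 4.66. With 6 genes and no values of single mice, nothing is drawn from that share. Pparg had peaks in both lists, and Plin2 and Fabp4 in neither. All 4 hepatocyte markers, Alb, Apoa1, Ttr and Serpina1a, had no peak in either list. Of 3 club cell markers, Scgb1a1 had peaks in both lists, Cyp2f2 in the OVA list alone and Scgb3a2 in neither. All 4 alveolar type 1 markers and 5 of 6 alveolar type 2 markers had peaks in both lists, and Sftpc had none. Of 5 macrophage and eosinophil markers, Mrc1 and Ear2 had peaks in both lists, Chil3 in the PBS list alone, with a fold enrichment of 1.75, and Marco and Siglecf in neither. Presence of a peak on a marker is not a measure of how many such cells were in the lung.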

How the data were processed

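Per the labels and methods, ribosome-depleted lung RNA of each mouse was fragmented, and libraries were made with and without m6A immunoprecipitation. The authors used FASTP for cleaning, HISAT2 for alignment (Ensembl version 101), exomePeak for peak calling and ChIPseeker for annotation. How mice were combined into 1 list per group is not stated. The authors' caller gave the fold enrichment, a ratio of IP to input. It also gave the deposited score, the log10 of p or FDR. Both were set only against peaks of the same list. Peak positions are those of the lists, and gene positions are from RefSeq (GRCm38).

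Peaks were matched by at least 1 bp of shared exonic blocks. The members and lists were chosen with earlier results of these data known. The genes named are all Ces1 genes and other carboxylesterases, genes with a peak within 500 kb, the 2 peaks above and 2 below Ces1g by log10 p, and, of lipid ester hydrolases, xenobiotic enzymes and nuclear receptors, those with peaks in 1 list alone and the 3 with the highest fold enrichment per peak list. Cell type markers were listed as well. Gnao1 and the hydrolases without a peak were named after their values were seen. The values of 1 xenobiotic enzyme are not reported here. Sequences, motifs and expression levels were not analysed here. The overlap code was tested on simulated data. Python 3.11.15, pandas 2.3.3, numpy 2.4.6, scipy 1.17.1 and matplotlib 3.10.9 were used.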

Additional observations from a re-analysis of the deposited data

How the results depend on the processing

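Of 28 alternative values computed for the Ces1 counts and percentiles, 22 did not move beyond the limits set for them. Counting peaks by assigned gene alone or by called gene alone, keeping peaks with an FDR under 0.05 or a fold enrichment of at least 2, and matching by genomic spans or by 50% of both peaks all left 1 OVA and 2 PBS peaks, of which 0 and 1 had no counterpart. Most of these rules could not have changed the counts, so they say little about how stable the counts are. Every called and assigned gene was a Ces1 gene. No Ces1 peak had a log10 FDR above -3.33 or a fold enrichment below 6.98. The nearest OVA peak to that of Ces1g was 101239 bp away. When identical start and end positions were required, 1 OVA and 2 PBS peaks had no counterpart, because the Ces1e peaks differ at 1 edge. Among peaks on protein-coding transcripts alone, the fold enrichment percentile was 82.4 for Ces1e in the OVA list, 80.2 for Ces1e in the PBS list and 56.6 for Ces1g. With an FDR under 0.05, that of Ces1g was 58.2. No paired analysis was possible because the lists hold no values of single mice, and for the same reason no mouse could be left out in turn. The depth behind a peak is unknown.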
